A study of Mus musculus with 6 samples.

Results

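Transcripts of the core cell cycle engine, that is cyclins, cyclin-dependent kinases (CDKs), CDK inhibitors, RB proteins, E2F factors and CDC25 phosphatases, were examined in mouse bone marrow cells that lacked lineage markers and carried Sca1 (Lin-Sca1+), a population enriched for haematopoietic stem cells. The members were the probe sets annotated to 1 of 41 listed genes and to no other gene, which gave 93 of 45037 probe sets and covered 40 genes. Ccnb1 was not analysed here. The cells came from wild-type (WT) mice and from Nr4a1 Nr4a3 double knockout (DKO) mice, bred from Nr4a1-/- and Nr4a3-/- lines and without this pair of related orphan nuclear receptors. Mice of both groups were 2 to 3 weeks old. DKO mice were bred on a C57BL/6 and 129SvJ hybrid background, while no strain is labelled for WT. Each group had 3 Affymetrix arrays, each with RNA pooled from 10 to 20 mice, so the spread between replicates is that between pools. The number of arrays limits the precision.

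Progress through the cell cycle depends on kinases that are active only with a cyclin bound. In G1, the D-type cyclins with Cdk4 or Cdk6 phosphorylate RB proteins, which releases E2F factors and lets S phase genes be transcribed, and cyclins E, A and B with Cdk2 or Cdk1 then drive replication and mitosis. Inhibitors of the CIP/KIP and INK4 families hold these kinases back. Most adult haematopoietic stem cells are out of cycle, many in the first weeks of life still divide, and the amount of Cdk6 is known to govern how readily they leave that state.

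Cdk6 was the 1 gene of the group with a probe set that changed between genotypes. Its signal was higher in DKO at all 3 of its probe sets, and 1 of the 3 rose past the threshold, an adjusted p of 0.05 in limma's test over 27022 probe sets. No other cyclin, CDK, inhibitor, RB, E2F or CDC25 probe set passed. Of the 93 probe sets 86 were bright enough to be tested, of which 1 rose and 0 fell in limma's test. Over all tested probe sets 1.37% passed, 0.807% higher and 0.563% lower. At an unadjusted p under 0.05, 6 of the 86 stood out, 5 higher and 1 lower, against 14.2% of all tested probe sets. The groups did not overlap at 11 of the 86, 8 with DKO higher and 3 with DKO lower, against 19.8% of all. The 5 and the 8 both include a dim Ccnc probe set that was bright enough for the test only through its DKO values.

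The sequence upstream of a transcription start is shown for Cdk6, the gene with the called probe set, and for 3 members that hold a motif searched for here. Windows are the 250 bases before the start from RefSeq's promoter table, build GRCm38.p6, written 5′ to 3′ on the gene's strand. They lie at chr5:3343643-3343892 (plus strand) for Cdk6, chr17:47504801-47505050 (plus) for Ccnd3, chr2:157204535-157204784 (minus) for Rbl1 and chr10:69352913-69353162 (minus) for Cdk1. The Cdk6 window lies within the RefSeq gene, which spans 3341004 to 3531008 on chromosome 5 and so has an earlier start. Capitals mark matches, on either strand, to the NR4A response element AAAGGTCA, to an E2F motif (TTTCCCGC, TTTGGCGC, TTTCGCGC or TTTGCCGC) or to the cell cycle homology region motif TTTGAA, and none of the marked matches overlap.
Cdk6: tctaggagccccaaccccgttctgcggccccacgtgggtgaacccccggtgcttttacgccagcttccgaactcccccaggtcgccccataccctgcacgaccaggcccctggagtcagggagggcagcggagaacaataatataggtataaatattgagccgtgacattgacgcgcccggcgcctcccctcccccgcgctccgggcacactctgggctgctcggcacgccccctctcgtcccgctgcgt
Ccnd3: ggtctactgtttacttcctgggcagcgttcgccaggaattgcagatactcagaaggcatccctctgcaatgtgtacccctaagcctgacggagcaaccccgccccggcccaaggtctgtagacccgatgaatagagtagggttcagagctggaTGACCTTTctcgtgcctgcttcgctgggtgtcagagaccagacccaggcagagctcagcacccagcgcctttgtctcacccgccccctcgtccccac
Rbl1: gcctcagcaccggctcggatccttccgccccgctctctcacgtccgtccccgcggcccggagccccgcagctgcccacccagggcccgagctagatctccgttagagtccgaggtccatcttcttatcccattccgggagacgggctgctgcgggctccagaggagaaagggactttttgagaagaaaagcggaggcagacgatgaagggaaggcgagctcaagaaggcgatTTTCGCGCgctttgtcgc
Cdk1: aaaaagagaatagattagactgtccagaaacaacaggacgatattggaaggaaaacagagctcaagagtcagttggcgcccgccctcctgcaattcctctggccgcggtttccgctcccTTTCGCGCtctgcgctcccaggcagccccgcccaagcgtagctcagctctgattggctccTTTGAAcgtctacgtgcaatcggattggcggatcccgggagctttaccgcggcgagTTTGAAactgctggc
The Cdk6 window holds none of these letters. In all, 31 of the 41 genes matched the table, with 37 windows. Ccnd1 and Ccnd2 were among the genes without a window and were not searched. The NR4A element was found in 1 of the 37, that of Ccnd3 shown here, where it begins 97 bases before the start, and in 1.34% of all 32851 windows. An E2F motif was found in 7 of the 37 windows, of the genes Cdc25a, Cdk1, Cdk2, Cdkn2a, E2f3, E2f7 and Rbl1, and in 1.86% of all windows. TTTGAA was found in 8 of the 37 and in 16% of all windows. A match describes the letters and does not show that a factor binds there.

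Cdk6, a partner kinase of the D-type cyclins, had signals at its brightest probe set of 4570.5, 3688.8 and 4976.7 in WT replicates 1 to 3 and 7546.9, 7267.2 and 6491.4 in the DKO replicates. Every DKO pool lay above every WT pool. The log2 difference, DKO minus WT on the log2(signal + 16) scale, was 0.69 ± 0.17 (SE, n = 3 per group) with limma's adjusted p = 0.0713, which missed the threshold.

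At the second brightest probe set the Cdk6 signals were 2359.7, 2040.8 and 3850.5 in WT and 5276.9, 4228.2 and 5685.5 in DKO. The groups again did not overlap, although WT replicate 3 lay close to DKO replicate 2. The log2 difference was 0.92 ± 0.24 (limma, adjusted p = 0.0920). The third probe set had 2296.9, 1397.9 and 2351.4 in WT and 4989.6, 4311.5 and 5069.5 in DKO. Here the lowest DKO pool was well above the highest WT pool. Cdk6 rose at this probe set from 2015 ± 535 to 4790 ± 416 (SD, n = 3), a log2 difference of 1.28 ± 0.22 with a 95% interval of 0.79 to 1.76 (limma, adjusted p = 0.0175).

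The size of the Cdk6 difference depended on the probe set. With any 1 array left out, the log2 difference stayed between 0.57 and 0.79 at the brightest and between 0.73 and 1.19 at the second brightest. At the called probe set it stayed between 1.03 and 1.41, and there the size held better than the call. The call was lost without DKO replicate 1, 2 or 3 (limma, adjusted p = 0.0843, 0.0527 and 0.0850) and without an intensity trend in the variance (adjusted p = 0.142), and it held without each WT replicate. Marker transcripts of several cell types differed between the groups as well. The 13 measured stem cell genes had a summed signal of 39154 to 46952 in WT and 19186 to 22544 in DKO, with 11 lower in every DKO pool. All 10 genes of mast cells, basophils and eosinophils were higher in every DKO pool, with sums of 1809 to 14227 in WT and 33201 to 40740 in DKO. For T and NK cells 8 of 10 were higher in every DKO pool (sums of 4490 to 5537 and 12062 to 16417), and for plasma cells 4 of 6 were and 1 was lower (3132 to 4096 and 19565 to 47092). No gene of these 4 lists averaged below the filter limit over all 6 arrays, but the group with higher values can carry such an average. Their part in the Cdk6 result was not tested, and in pooled RNA a different mix of cells and a different RNA level per cell cannot be told apart.

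**Figure D1:**
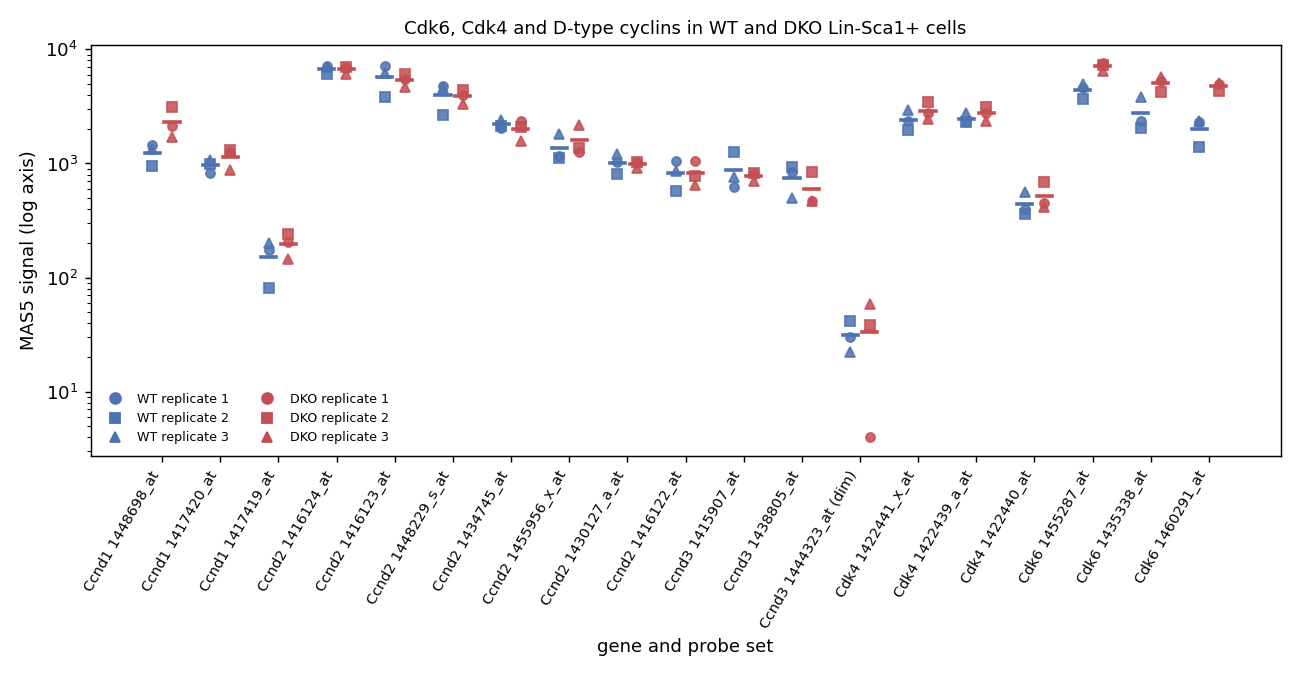
MAS5 signal on a log axis of every probe set of Ccnd1, Ccnd2, Ccnd3, Cdk4 and Cdk6 in each of 3 WT (blue) and 3 DKO (red) arrays, with bars at the group means and "dim" marking the probe set left out by the filter. The DKO points lie above the WT points at all 3 Cdk6 probe sets and at 1 of 3 Ccnd1 probe sets, and the groups overlap at the other probe sets.

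Cdk4, the other kinase that pairs with D-type cyclins, did not pass at any of its 3 probe sets. At the brightest it had 2366.2, 1969.2 and 2925.1 in WT and 2751.7, 3475.2 and 2444.6 in DKO, and the groups overlapped. Its log2 difference there was 0.26 ± 0.21 with a 95% interval of -0.21 to 0.73, and the other probe sets lay at 0.15 and 0.22. Averaged over probe sets within arrays, the log2 difference of Cdk6 was above that of Cdk4 by 0.76 and above that of Cdk2 by 0.81. In both cases every DKO pool lay above every WT pool. The exact two-sided permutation p was 0.10 for each, which is the smallest that 3 against 3 arrays can give, and 0.133 after Benjamini-Hochberg adjustment over 4 such pairs.

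Cdk2, the partner of cyclins E and A, lay at 0.15 ± 0.35 at its tested probe set, and Cdk1, the mitotic kinase, at 0.33 ± 0.27. Cdk1 had 791.2, 1279.7 and 699.2 in WT and 1250.9, 1049.9 and 1092.3 in DKO. WT replicate 2 was the highest of the 6 arrays and the other WT pools were the lowest. A dim second probe set of Cdk2, with a WT mean of 19.3 and a DKO mean of 9.10, was left out by the filter.

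Among the D-type cyclins, the subunits that couple growth signals to Cdk4 and Cdk6, Ccnd1 had the largest difference and did not pass. At its brightest probe set Ccnd1 had 1450.4, 948.7 and 1339.6 in WT and 2124.7, 3118.4 and 1704 in DKO. Every DKO pool was above every WT pool there, and the log2 difference was 0.86 ± 0.27 (limma, adjusted p = 0.155). The other Ccnd1 probe sets gave less. The second had 821.1, 998.9 and 1065.6 against 1257.1, 1323.5 and 867.6 (0.24 ± 0.25), and the third had 174.7, 80.9 and 201.9 against 205.3, 241.1 and 145.5 (0.40 ± 0.44). In both of these DKO replicate 3 fell among the WT pools, so the 3 probe sets of Ccnd1 did not give the same picture. Averaged over probe sets within arrays, the log2 difference of Ccnd1 was above that of Ccnd2 by 0.50 and above that of Ccnd3 by 0.73. Every DKO pool lay above every WT pool against Ccnd2, and the groups overlapped against Ccnd3. The exact two-sided permutation p was 0.10 against Ccnd2 (adjusted 0.133) and 0.20 against Ccnd3 (adjusted 0.20). As 0.10 is the smallest p that these arrays can give, the threshold was out of reach and the test decides neither comparison.

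Ccnd2, a D-type cyclin of blood cells, was nearly level at its 7 probe sets. Its log2 differences lay between -0.15 and 0.21, with 3 above 0 and 4 below. At the brightest, Ccnd2 had 7093.4, 6064.4 and 7013.5 in WT and 6909.8, 6995.9 and 6095 in DKO. The 95% interval of that difference, -0.34 to 0.31, left out a 2-fold change in either direction. At the other probe sets the ranges were 3793.9 to 7139.1 in WT against 4709.2 to 6026.5 in DKO, 2646.3 to 4740.4 against 3287.8 to 4408.3, 2045.8 to 2424 against 1576.2 to 2355.4, 1121.8 to 1817.1 against 1250 to 2163.6, 801.2 to 1218 against 907.7 to 1028.1, and 573 to 1043.5 against 653.9 to 1059.1. The groups overlapped at all 7. Ccnd2 includes probe sets of the s and x kinds, which may bind related transcripts. The brightest probe sets of Cdk4, Ccnh, E2f5 and Cdc25c are also of these kinds.

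Ccnd3, the third D-type cyclin, had 617.8, 1269.2 and 766.1 in WT and 807.1, 821.7 and 701.8 in DKO at its brightest probe set (-0.12 ± 0.30). The DKO pools were close together and inside the WT range, whose top was WT replicate 2. At the second it had 833.3, 922.3 and 500.5 against 472.6, 844.7 and 471 (-0.34 ± 0.33). The third (WT 22.2 to 41.4, DKO 4 to 58.5) was left out by the filter. Ccnd3 is the member with an NR4A element in a window shown above, and its level did not differ beyond the spread between pools.

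CDK inhibitors did not pass the test in either direction. In the CIP/KIP family, Cdkn1a (p21), a target of p53, had 2676.3, 4987.5 and 2506.1 in WT and 2905, 2670.5 and 2042.2 in DKO. WT replicate 2 stood apart and the other 5 pools lay together, so the difference of -0.36 ± 0.26 (95% interval -0.93 to 0.22) was within the spread. A second Cdkn1a probe set had 202.8, 245.3 and 142.1 against 168.1, 207.6 and 52.8 (-0.56 ± 0.50). Cdkn1b (p27), an inhibitor linked to quiescence, had 676.7, 1198.9 and 654.2 in WT and 1036, 848.4 and 852.9 in DKO at 1 probe set (0.16 ± 0.29). At the other it had 849.1, 1139.8 and 565.8 against 739.6, 644.5 and 669.1 (-0.26 ± 0.29). The Cdkn1b probe sets thus lay on different sides of 0, each within its error.

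In the INK4 family, whose proteins bind Cdk4 and Cdk6, Cdkn2a (the gene of p16 and Arf) was near the floor of the arrays. Its signals were 2.1, 3 and 2.1 in WT and 4.8, 21 and 2.3 in DKO, and its probe set was left out by the filter. Cdkn2b (p15) was dim, at 25.3, 169 and 14.1 in WT and 93.2, 113.9 and 171.2 in DKO. Cdkn2b entered the test through WT replicate 2 and the DKO pools, as WT replicates 1 and 3 lay below the filter limit. Among the 38 tested cell cycle genes at their brightest probe sets it had the largest log2 difference, 1.18 ± 0.64, but WT replicate 2 lay among the DKO pools and the 95% interval ran from -0.23 to 2.58 (limma, adjusted p = 0.437).

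Cdkn2c (p18), an inhibitor known for restraining stem cell division, had 324.3, 1437.5 and 252.9 in WT and 333.7, 359.5 and 573.8 in DKO. WT replicate 2 was far above all other pools, and the log2 difference turned from -0.26 ± 0.54 to 0.49 without it (limma, adjusted p = 0.881 with all arrays). Cdkn2d (p19) had 323.7, 826 and 487.1 against 551.2, 630.4 and 441.3 (0.07 ± 0.36). Cdkn3, a phosphatase that acts on CDKs, had 874.1, 778.1 and 469.2 in WT and 595.7, 589.5 and 494.1 in DKO (-0.29 ± 0.30). All DKO values of Cdkn2d and Cdkn3 lay inside the WT range.

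**Figure D2:**
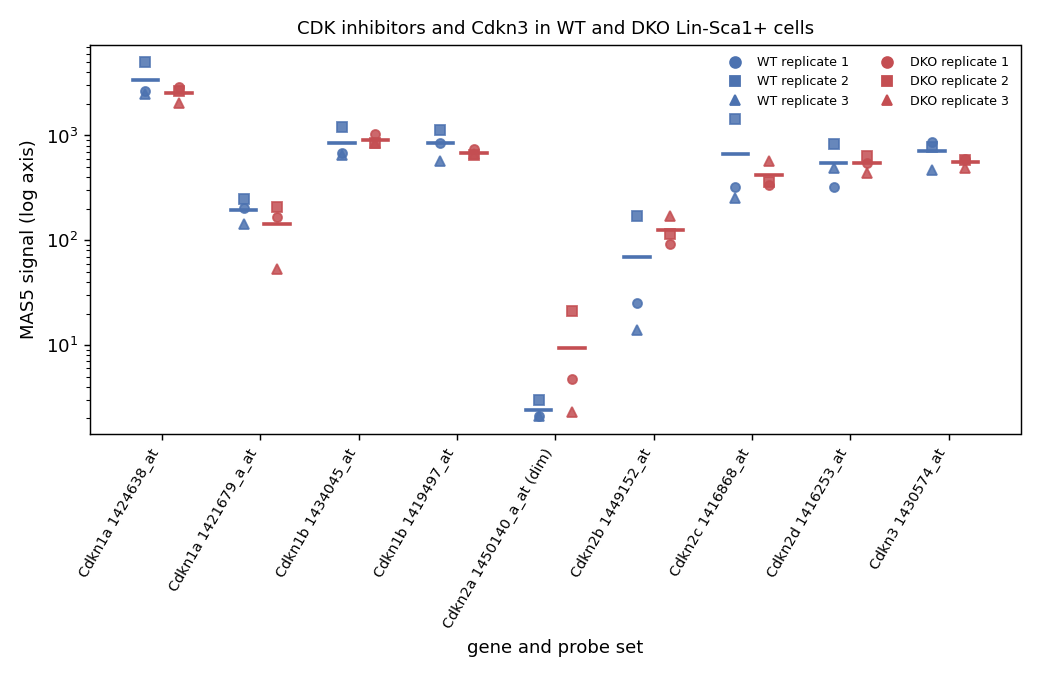
MAS5 signal on a log axis of every probe set of the CDK inhibitors and Cdkn3 in 3 WT (blue) and 3 DKO (red) arrays, with bars at the group means and "dim" marking the Cdkn2a probe set left out by the filter. The groups overlap at each probe set, and WT replicate 2 (blue squares) is the highest WT point at each probe set but that of Cdkn3.

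Cyclins of S phase and mitosis did not pass. Ccnb2, a mitotic cyclin, had the smallest p of them, with 1263.9, 1908.5 and 1406.1 in WT and 1841.3, 1890.6 and 2172.3 in DKO (0.38 ± 0.22, limma, adjusted p = 0.467). WT replicate 2 reached the DKO pools and the other WT pools were lower. Ccna2, the cyclin of S phase and G2, lay at 0.19 ± 0.17 at its brightest probe set, and at the dimmer one every DKO pool was above every WT pool (1078.9 to 1319.7 against 1365 to 1482.9, 0.27 ± 0.21). The cyclins of the G1 to S transition, Ccne1 and Ccne2, lay at 0.45 ± 0.39 and -0.13 ± 0.42.

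The cyclins and kinases that act mainly in transcription did not pass either. Ccnt1, which with Cdk9 releases paused RNA polymerase II, had 2580.3, 1539 and 1961.6 in WT and 1354, 1645.5 and 1078.9 in DKO (-0.56 ± 0.25, limma, adjusted p = 0.341). This was the lowest difference of the 38 tested genes at their brightest probe sets. The groups overlapped at WT replicate 2 and DKO replicate 2. Its relative Ccnt2 lay below 0 at all 5 probe sets, from -0.34 to -0.02, and Cdk9 at 0.03 ± 0.21. The Mediator pair Ccnc and Cdk8 lay at 0.14 ± 0.40 and 0.19 ± 0.26 at their brightest probe sets. A dim Ccnc probe set was higher in every DKO pool (WT 41.5 to 55.8, DKO 77.8 to 163.4; 1.14 ± 0.45, adjusted p = 0.274 in limma). Its WT mean signal, 47.6, was below the filter limit, so it entered the test only through its DKO values.

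Cdk7, the CDK-activating kinase, was below 0 at all 5 of its probe sets. Their differences ran from -0.81 to -0.07, with the brightest at -0.17 ± 0.23. At a pair of dimmer ones every DKO pool was below every WT pool, at 394.8 to 688.9 against 263.7 to 345.1 and at 141.9 to 237.4 against 57.6 to 137.1. Ccnh, the cyclin of Cdk7, lay at 0.33 ± 0.22 at its brightest probe set and at 0.13 and -0.66 at the others. Cdk5, a kinase best known from neurons, lay at -0.04 ± 0.42 at its brightest probe set and at -0.80 and 0.38 at the others. Among the brightest probe sets of the genes here called other CDKs (Cdk5, Cdk7, Cdk8 and Cdk9), that of Cdk8 had the smallest p. It had 1019.5, 818.5 and 681.2 in WT and 1096.7, 892.6 and 865.7 in DKO, overlapping groups.

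RB proteins, the brakes on E2F factors, did not pass at any tested probe set. At its brightest probe set Rbl1 (p107) had 1640.7, 1476 and 1546.1 in WT and 1720.7, 1748.6 and 1857.9 in DKO, with no overlap between groups. Its difference was 0.19 ± 0.19 (limma, adjusted p = 0.715). The other tested Rbl1 probe sets, at which the groups overlapped, lay at 0.16 ± 0.23 and, for a dimmer one, at 0.68 ± 0.37 (limma, adjusted p = 0.437). Among the brightest probe sets of the family, that of Rbl2 (p130), the RB protein of resting cells, had the smallest p. There Rbl2 had 1329.3, 1395.1 and 1987 against 1878.8, 1671.9 and 2122.9 (0.28 ± 0.23), but a second Rbl2 probe set lay at -0.45 ± 0.31. Rb1 lay at -0.32 ± 0.37 at its brightest probe set. A dimmer Rb1 probe set was lower in every DKO pool (WT 113.4 to 248.6, DKO 75.3 to 110.8; -0.76 ± 0.43, adjusted p = 0.458 in limma).

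The E2F factors did not pass in any of their 3 classes. Among the activators, E2f1 lay at 0.11 ± 0.29 and E2f3 at 0.01 ± 0.22. E2f2 had 1595.6, 2553.1 and 578.7 in WT and 1403.2, 1204.6 and 819.9 in DKO (-0.26 ± 0.44). The WT pools of E2f2 spanned the whole DKO range, and at a second probe set WT replicate 2 had 4308 where the other 5 arrays had 452.5 to 1209.1. Of the repressors, E2f4 had 15 to 44.4 in WT and 33.8 to 81.1 in DKO and was not tested. E2f5 had 53.8, 103.3 and 80.1 against 159, 76.3 and 101.6 (0.42 ± 0.45). E2f6 lay at -0.16 ± 0.25 at its brightest probe set and at 0.73 ± 0.62 at a dimmer one.

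The atypical E2Fs, which repress E2F targets late in S phase, lay at 0.20 ± 0.30 for E2f7 and 0.35 ± 0.26 for E2f8. E2f8 had 1512.4, 2721.2 and 1644.5 in WT and 2990.7, 1923.5 and 2460.4 in DKO, and WT replicate 2 lay among the DKO pools. Among the brightest probe sets of the CDC25 phosphatases, which remove inhibitory phosphates from CDKs, that of Cdc25a had the smallest p. It had 1587.1, 2164.9 and 1723.3 in WT and 2016, 2680.2 and 1615.5 in DKO (0.19 ± 0.23). Cdc25b and Cdc25c lay at -0.28 ± 0.45 and 0.17 ± 0.50. A second, dimmer Cdc25c probe set was higher in every DKO pool (WT 77.2 to 118.3, DKO 120.2 to 247.9; 0.80 ± 0.43, adjusted p = 0.423 in limma).

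**Figure D3:**
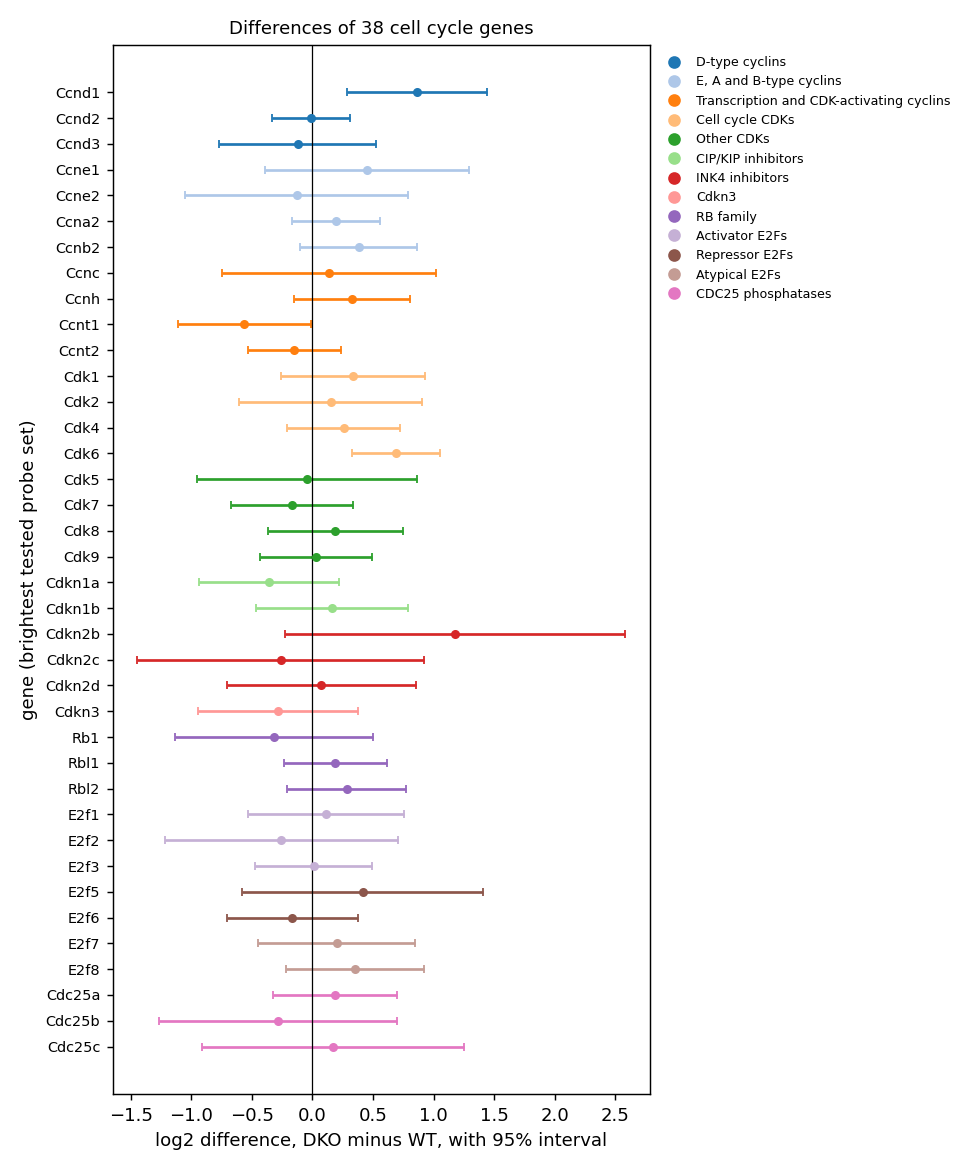
Log2 difference, DKO minus WT, with its 95% interval for the brightest tested probe set of each of 38 genes, coloured by class. The intervals of Ccnd1, Cdk6 and Ccnt1 do not reach 0, but they are not adjusted for the number of tests, and at these probe sets 0 of the 38 passed the adjusted threshold.

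Taking each gene at its brightest probe set, 24 of the 38 tested genes were higher and 14 lower in DKO, with a median log2 difference of 0.14, where 49.2% of all 11529 tested genes were higher with a median of -0.01. In limma's test 0 of the 38 passed, against 1.71% of all tested genes, and 3 of them had an unadjusted p under 0.05 (Cdk6, Ccnd1 and Ccnt1), against 16.3%. The groups did not overlap for 3 genes, Cdk6, Ccnd1 and Rbl1, against 22% of all tested genes. The cell cycle median was 0.25 with each array centred on its median, which moved the median of all genes to 0.10, and with an array left out it lay between 0.06 (without WT replicate 1) and 0.17 (without WT replicate 2). It was 0.08 without DKO replicate 1 or DKO replicate 3 and 0.09 without WT replicate 3. For 25 of the 38 genes the 95% interval lay within 1 log2 unit of 0, that is, inside a 2-fold change each way. The same held for 5015 of all 11529 tested genes. The median SE was 0.27, against 0.33 over all tested genes.

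By class, the median log2 difference was 0.30 for Cdk1, Cdk2, Cdk4 and Cdk6, 0.29 for the E, A and B-type cyclins, 0.28 for the atypical E2Fs, 0.19 for the RB family and 0.17 for the CDC25 phosphatases. It lay within 0.13 of 0 for the D-type cyclins (-0.01), the cyclins of transcription and CDK activation (-0.005), the other CDKs (-0.01), the CIP/KIP inhibitors (-0.10), the INK4 inhibitors (0.07), the activator E2Fs (0.01) and the repressor E2Fs (0.13). Under every alternative run, the median stayed above 0 for Cdk1, Cdk2, Cdk4 and Cdk6 (0.27 to 0.40), for the E, A and B-type cyclins (0.18 to 0.42) and for the atypical E2Fs (0.21 to 0.38). These medians rest on 4, 4 and 2 tested genes. None of the E, A and B-type cyclins or atypical E2Fs had an unadjusted p under 0.05 in limma's test at its brightest probe set. Each of the other medians given here changed sign under at least 1 alternative. The CDC25 median was -0.23 without DKO replicate 3, -0.05 without WT replicate 1, -0.004 without DKO replicate 2 and 0.30 without WT replicate 2. The repressor E2F median was 0.42 with no filter on low values, -0.16 with a filter that removed the dimmest 60% and -0.05 without DKO replicate 1. The RB family median was -0.09 when each gene was taken as the average of its probe sets. The D-type cyclin median was 0.17 without WT replicate 2 and 0.10 with median centring. Without WT replicate 2 the CIP/KIP median was 0.20, and without WT replicate 1 the INK4 median was -0.24.

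WT replicate 2 was often the highest array for these genes. It was the highest of the 6 arrays for 12 of the 38 genes (31.6%, against 19.5% of all tested genes). These were Ccnd3, Ccne2, Ccnt2, Cdk1, Cdk7, Cdkn1a, Cdkn1b, Cdkn2c, Cdkn2d, Rb1, E2f2 and Cdc25b, among them 4 inhibitors. Each of the 3 WT arrays was the lowest for 10 of the 38 genes (26.3%), against 17.3%, 21.4% and 12.7% of all tested genes for replicates 1, 2 and 3, so low values were not particular to WT replicate 2. Its 10 included Cdk6, Cdk4, Cdk2, Ccnd1 and Ccnd2. The same pool had the highest summed signal of neutrophil genes, 82715 against 17462 to 51106 in the other 5 arrays, of erythroid genes, 39511 against 3187 to 14638, and of B lineage genes, 8651 against 1620 to 2434. The part of these cells in the WT spread was not tested. Without WT replicate 2, 28 of the 38 genes were higher in DKO, Cdk6 was still higher by 1.03 at its called probe set (limma, adjusted p = 0.0194), and the median of the INK4 inhibitors was 0.49.

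Other genes of the pathway gave 0 calls in limma's test in 3 lists. Of 33 tested CDK partners and regulators, 11 were higher and 22 lower (median -0.12, and -0.01 with median centring), and 5 had an unadjusted p under 0.05, near the 16.3% of all tested genes. The smallest p in it belonged to the DP subunits that most E2F factors need to bind DNA. Tfdp2 had 5499.5, 8232.7 and 4928.6 in WT and 3020.2, 3770.1 and 2423.4 in DKO, a difference of -1.001 ± 0.227 (limma, adjusted p = 0.0573). Tfdp1 had 3328.2, 3313.4 and 4215.2 in WT and 5676, 5494.3 and 5540.2 in DKO, a difference of 0.63 ± 0.16 (limma, adjusted p = 0.0975). For both genes the groups did not overlap, Tfdp2 with DKO low and Tfdp1 with DKO high, and both missed the threshold. A further 3 genes were chosen after their values were seen. Cdk17 and Cdk19 were lower in every DKO pool (-0.62 ± 0.17 and -0.85 ± 0.24, limma, adjusted p = 0.114 and 0.123). Cdkn1c (p57), the remaining CIP/KIP inhibitor and an imprinted gene active in stem cells, had 368.2, 10.9 and 418 in WT and 79.5, 10.1 and 47.9 in DKO. WT replicate 2 was close to the lowest DKO pool, and the difference was -1.61 ± 0.93 (limma, adjusted p = 0.467).

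S phase genes, many of them E2F targets, were higher in 24 of 28 cases with a median log2 difference of 0.19 (0.29 with median centring), and 0 passed. With an array left out the median lay between 0.15 and 0.24, and 19 of 28 were higher without WT replicate 1. In 9 of the 28 every DKO pool was above every WT pool and in 0 below, against 10.7% and 11.3% of all tested genes. The ribonucleotide reductase gene Rrm2 had 3758.2, 7741 and 4271.4 in WT and 7307.1, 7522.5 and 9056.6 in DKO (0.67 ± 0.24, limma, adjusted p = 0.227), with WT replicate 2 among the DKO pools. Gins1, a subunit of the replicative helicase, had 1876.8, 1830.7 and 1988.3 against 2523.4, 2497.5 and 2956.2 (0.48 ± 0.18, adjusted p = 0.259 in limma), with no overlap.

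Of 25 genes of G2 and M phase 17 were higher and 8 lower, with a median of 0.12 (0.23 with median centring), and 0 passed in limma's test. That median was 0.02 without DKO replicate 1, 0.04 without WT replicate 3 and 0.28 without WT replicate 2. Kif20a, a kinesin of cytokinesis, had 2344.7, 1962.5 and 1892 in WT and 3567, 2965 and 2554.7 in DKO (0.54 ± 0.20, limma, adjusted p = 0.236). The topoisomerase gene Top2a had 3043.6, 3903.8 and 3468.8 against 4642.6, 3995.7 and 4734.1 (0.36 ± 0.17, adjusted p = 0.368 in limma). For both genes the lowest DKO pool was above the highest WT pool. At an unadjusted p under 0.05 there were 3 of 28 S phase genes and 1 of 25 genes of G2 and M phase, both below the 16.3% of all tested genes.

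**Figure D4:**
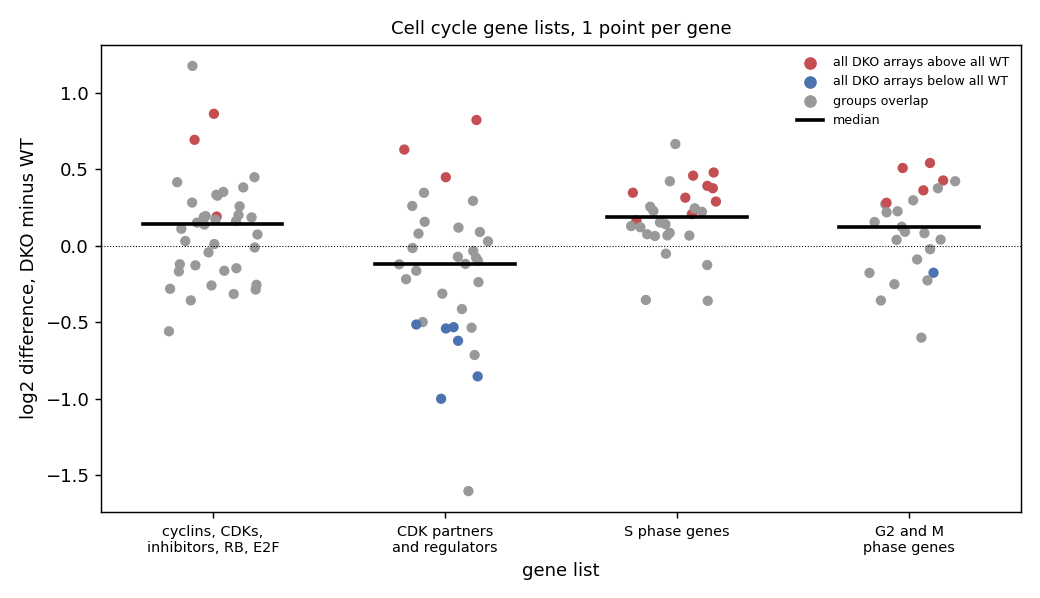
Log2 difference, DKO minus WT, at the brightest tested probe set of each gene in 4 lists, with the median as a bar and colours for whether all DKO arrays lay above (red) or below (blue) all WT arrays. In the S phase list 24 of 28 points lie above 0 and 9 are red. The list of CDK partners and regulators has 3 red and 6 blue points among 33. Of all tested genes 49.2% were above 0, 10.7% were higher in every DKO array and 11.3% were lower in every DKO array.

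As a check of the labels, Nr4a1 had 1110.5, 1269.4 and 816.3 in WT and 8, 22.4 and 33.8 in DKO. The 3 Nr4a3 probe sets were too dim for the test. One had 40.4, 61.8 and 51.5 in WT and 20.9, 4 and 0.6 in DKO, lower in every DKO pool with a log2 difference of -1.53, and the others, where the groups overlapped, lay at -1.51 and -0.19. Median signals per array lay between 91.6 and 122.5. Arrays of the same group correlated at 0.898 to 0.944 and arrays of different groups at 0.874 to 0.912, over the log2 values of all tested probe sets. Among the stem cell genes 13 of 13 measured were above the filter limit on average in these cells.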

How the data were processed

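RNA of 6 pools, 3 WT and 3 DKO, was measured on 1 array each. The deposited table holds linear intensity values (MAS5 signal), which the authors made with MAS5 per the submitters' processing notes, with no version given. Every array has a trimmed mean of 500 (trim of 2% per end), so this scaling was kept. Of 45101 probe sets 64 controls were left out. Symbols came from the platform annotation, where 34945 probe sets have 1 symbol, 932 several and 9160 none. Of those with 1 symbol, 34741 matched the RefSeq table of GRCm38.p6 by gene identifier and 0 symbols changed.

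Signals became log2(signal + 16). The lowest 40% of probe sets by mean (a signal of about 53.2) were left out, and 27022 entered a two-sided limma 3.58.1 fit (R 4.3.3; lmFit, then eBayes, with its trend over intensity), with Benjamini-Hochberg adjustment over all 27022. Changes of dim genes come out too small on this scale. A gene stands at its brightest tested probe set. The fit was tested on simulated data. Named are all members, the 2 genes with the smallest p in each further list, and others marked as chosen after their values were seen. Of the members, values per array are given for Cdk6, the D-type cyclins and the inhibitors. In each other class they are given for the smallest p among brightest probe sets. They are also given for Cdk4, Cdk1 and Rbl1, which this rule did not select. The members and lists were chosen with earlier results of these data known. Each group's replicates are separate pools per the labels. No batch is given in the sources used here. Motifs were searched in the RefSeq promoter table. Plots used Python 3.11.15 with matplotlib 3.10.9.

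Alternatives were other pseudocounts (1, 64) and filters (none, 60%), centring or quantile scaling, eBayes without its trend, weights by array quality, the replicate number as a block, arrays left out singly, a gene's probe sets averaged, and a threshold of 0.10 for the adjusted p.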

Additional observations from a re-analysis of the deposited data

How the results depend on the processing

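The count of probe sets past the threshold among the cyclin, CDK, inhibitor, RB, E2F and CDC25 genes, 1 with all arrays, was 0 without an intensity trend, 2 with the replicate block, 3 at an adjusted p threshold of 0.10 and 0 to 2 with an array left out. All of these probe sets were Cdk6. The count over all tested probe sets, 370, was 88 without that trend, 208 with no filter on low values, 563 with array quality weights, 738 at a threshold of 0.10 and 104 to 469 with an array left out. With the replicate block 312 probe sets passed. Same-numbered WT and DKO arrays deviated from their group means with correlations of 0.14, -0.03 and 0.05, and not every array was closest to its own number. With 3 arrays per group these values cannot decide whether same-numbered arrays were paired. The median of the 38 genes lay above 0 under every alternative run, between 0.06 and 0.25. No member call reversed. Dim probe sets, such as those of Cdkn2a, Cdkn2b, E2f4 and E2f5, limit what can be said of these genes.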
